A study of Rattus norvegicus with 10 samples.

Results

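The genes examined here encode the nuclear subunits of the oxidative phosphorylation machinery and a group of proteins that help to build it, followed in rat lens explants that were differentiating under FGF2. Members were the array probe sets with a single gene symbol beginning with Nduf, Sdh followed by a letter from a to d, Uqcr, Cox4 to Cox8 or Atp5, and each gene was represented by its probe set of highest mean log2 intensity. The rule took in 101 probe sets of 90 genes, out of 31042 probe sets tested and 14217 genes with a probe set of their own. By symbol, 36 genes belonged to complex I, 4 to complex II, 7 to complex III, 16 to complex IV and 15 to complex V. A further 10 were assembly factors (Ndufaf and Sdhaf genes), 1 was the ATP synthase inhibitor Atp5if1 and 1 was the pseudogene Cox6c-ps1. The rule used levels only to choose among the probe sets of a gene, so no change over time entered the choice.

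The samples were what the study calls lens epithelial explants, from 3-day-old rat pups, 6 per assay. All had been kept overnight at 5 ng/mL FGF2. The explants collected at that point are the 0 hr group, and the others were collected 2, 4, 12, and 24 hr after FGF2 was raised to 100 ng/mL. Each of the 5 time points has 2 arrays from different cultures, 10 arrays in all. There were no explants kept at 5 ng/mL for the same hours, so a response to the dose and the effect of time in culture cannot be told apart, and an explant holds epithelial cells together with any cells already turning into fibers.

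Oxidative phosphorylation takes place in the inner mitochondrial membrane. Complexes I and II pass electrons from NADH and succinate to ubiquinone, complex III passes them on to cytochrome c, complex IV hands them to oxygen, and complex V (ATP synthase) uses the proton gradient built up by complexes I, III and IV to make ATP. Most subunits are encoded in the nucleus, the remainder in mitochondrial DNA, and those of the second kind lie outside the rule. In the lens, mitochondria are found in the epithelium and in young fiber cells and are degraded with the other organelles as fibers mature.

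The probe sets of these genes were bright. Their median stood at the 97.4th percentile of the mean log2 intensities of all probe sets tested, and 69 of the 90 lay in the brightest 10%. The 7 members below the median probe set were mostly isoforms known from other organs (Cox4i2, Cox6a2, Cox7a1, Cox7b2 and Cox8b of complex IV, and Ndufa4l2), together with the pseudogene. On single arrays the member median was 11.69 and 11.73 on the log2 scale at 0 hr, 11.58 and 11.59 at 2 hr, 11.55 and 11.50 at 4 hr, 11.64 and 11.58 at 12 hr, and 11.72 and 11.68 at 24 hr. The 2, 4 and 12 hr arrays thus all lay below the 0 hr arrays, and the 24 hr arrays overlapped them. Duplicate arrays differed by a SD of 0.106 to 0.155 (log2) over the members, against 0.161 to 0.3 over all probe sets.

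Array quality varied with time. The log2 ratio of 5′ to 3′ signal of the Actb control averaged −1.17, −1.91, −1.72, −1.36 and −1.81 in order of time, and the 5S rRNA control read 183 to 209 on the 2 and 4 hr arrays, against 112 to 154 on the rest. Array names listed by the study place the 0 hr, the 2 and 4 hr, and the 12 and 24 hr arrays in separate runs. Run and time therefore cannot be told apart in comparisons with 0 hr or of late with early arrays. The 2 and 4 hr arrays were listed in the same run, as were the 12 and 24 hr arrays. The 7 genes listed as markers of lens epithelium were Pax6, Foxe3, Cdh1, Cryaa, Cryab, Sparc and Slc38a3. The study counts expression of α-crystallins (Cryaa and Cryab) among early features of fiber differentiation, so this list does not separate epithelium from fibers. These 7 had summed intensities of 76556 to 76695 at 0 hr, 76749 to 81380 at 2 hr, 75911 to 77567 at 4 hr, 71324 to 71963 at 12 hr and 68544 to 69697 at 24 hr. The 9 fiber markers summed to 37276 to 37813 at 0 hr, 27417 to 36034 at 2 hr, 27955 to 36106 at 4 hr, 27414 to 32742 at 12 hr and 33409 to 37641 at 24 hr. Gene by gene, 0, 2, 3 and 4 of the 7 epithelial markers were called lower at 2, 4, 12, and 24 hr and 0 higher, with median log2 changes of 0.066, −0.183, −0.119 and −0.41, and 1, 4, 4 and 1 of the 9 fiber markers were called lower and 1, 1, 0 and 0 higher, with medians of −0.285, −0.313, −0.599 and −0.132. Of the defining markers of other cells, those of macrophage (4 genes, sum 137 to 230), pigment cells (4 genes, 136 to 156), retina (2 genes, 40.9 to 48.4) and striated muscle (5 genes, 111 to 128) stayed dim, and Pecam1 of endothelium stayed dim (17.2 to 29.9). The 3 endothelial markers, chiefly Tek and Kdr, summed to 1058 to 1378 at 0 hr, 1342 to 1624 at 2 hr, 1080 to 1194 at 4 hr, 879 to 956 at 12 hr and 719 to 768 at 24 hr, and the 2 red blood cell markers, chiefly the hemoglobin gene Hbb, to 2129 to 2167, 1997 to 3586, 2256 to 2398, 1393 to 1524 and 1292 to 1468. Of the 3 endothelial markers 0, 0, 1 and 0 were called higher and 0, 1, 1 and 1 lower at 2, 4, 12, and 24 hr. Their log2 changes at 12 hr ran from −1.633 to 1.21, so the sum hides opposite courses. The part of these markers in the results was not tested, and fewer cells of a type cannot be told apart from less RNA per cell.

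Set against 0 hr, most oxidative phosphorylation genes moved little. At 2 hr 1 member was up-regulated and 9 were down-regulated, 11.1% of the 90, against 17.5% of all probe sets (8.61% up and 8.88% down). At 4 hr the counts were 2 and 11 (14.4%, against 23.8% of all probe sets, 11.9% up and 11.9% down). At 12 hr they were 3 and 4 (7.78%, against 19.0%, with 8.94% up and 10% down), and at 24 hr 5 and 2 (7.78%, against 20.2%, with 9.29% up and 10.9% down). In this fit the share of members called was below that of all probe sets at each of the 4 times. At 4 hr the order turned with a trended and robust prior, which called 30.0% of the members, against 24.4% of all probe sets, and with the methods' analysis of variance at an unadjusted p under 0.05 (27.8%, against 22.9%). That analysis was run here as a plain linear model on only the arrays compared, without the template matching that the study also used. In all, 20 genes were called at 1 time or more and 70 at none, 84 stayed within 1.5-fold of 0 hr at all 4 times in their estimates, and only Sdhaf3 and Sdhaf4 reached 2-fold.

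The small shifts leaned downward first. The median log2 change of the 90 members was −0.094, −0.106, −0.078 and 0.035 at 2, 4, 12, and 24 hr, where the medians of all probe sets were −0.003, −0.021, 0.018 and 0.026. Below 0 lay 69, 68, 65 and 39 members. The precision was enough to bound most of these changes: the 95% interval lay wholly within 1.5-fold of 0 hr for 82, 80, 84 and 82 of the 90 members in order of time, against 66.7, 63.1, 67.4 and 66.5% of all probe sets. The counts rested on the 0 hr arrays in part. Without replicate 1 or 2 of 0 hr, 3 and 3 members were called at 2 hr, 5 and 4 at 4 hr, 1 and 1 at 12 hr, and 3 and 3 at 24 hr, and without either array of the time itself 6 and 6 were called at 2 hr, 0 and 1 at 12 hr, and 3 and 3 at 24 hr. Shares over all probe sets fell as well. Without replicate 1 or 2 of 0 hr they were 6.21 and 6.88% at 2 hr, and 12.8 and 12.9% at 4 hr. At 12 hr they were 9.6 and 9.27% in those fits, and at 24 hr 9.76 and 10.1%. Without 4 hr replicate 2, 8 members were called at 4 hr, and without either 12 hr array 4 and 4 at 24 hr. The median at 2 hr was −0.141 without 0 hr replicate 1 and −0.046 without replicate 2, at 4 hr −0.174 and −0.064, at 12 hr −0.116 and −0.036, and at 24 hr 0.003 and 0.066. The median at 24 hr was 0.066 and 0.012 without replicate 1 or 2 of that time. With the Actb ratio as a covariate 3 members were called at 2 hr and 7 at 4 hr. That made 3.33 and 7.78%, against 7.92 and 20.1% of all probe sets.

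**Figure D1:**
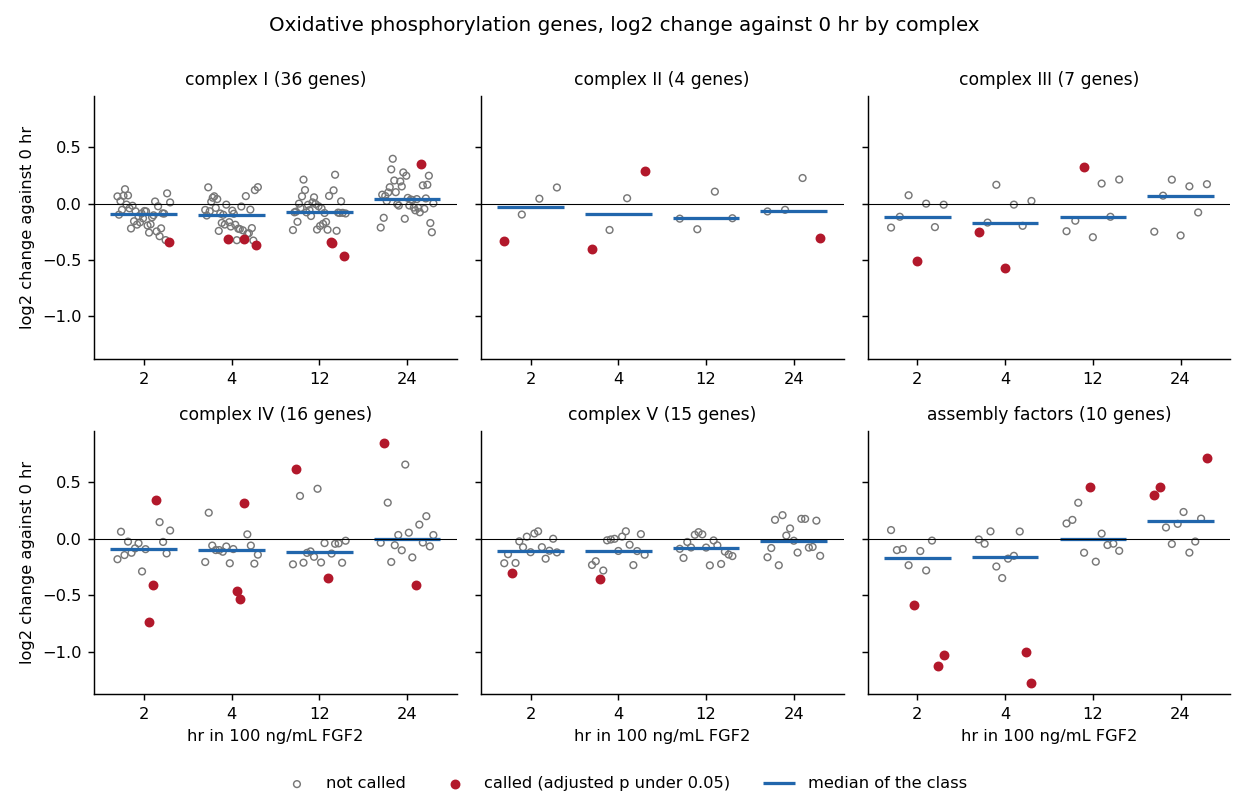
Log2 change against 0 hr (vertical axis) of every member at 2, 4, 12, and 24 hr, in a panel for each complex and for the assembly factors; red filled points passed the test at an adjusted p under 0.05, and the blue horizontal line is the median of the panel at that time. Complexes I and V stay close to 0, and the points farthest from 0 are the assembly factors Sdhaf3 and Sdhaf4 at 2 and 4 hr.

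Complex I, the NADH dehydrogenase, had 36 members and few calls: 1 at 2 hr, 3 at 4 hr and 3 at 12 hr, all lower, and 1 at 24 hr, higher. That made 2.78, 8.33, 8.33 and 2.78%, against 17.5, 23.8, 19.0 and 20.2% of all probe sets. The median changes were −0.089, −0.103, −0.078 and 0.042. Ndufv2, an iron-sulfur subunit of the NADH-binding module, was the member of complex I with the lowest called value. It read 2901 and 2870 at 0 hr, 2289 and 2273 at 2 hr, 2177 and 2312 at 4 hr, 1979 and 2206 at 12 hr, and 2451 and 2388 at 24 hr. All 8 arrays after 0 hr lay below both 0 hr arrays, with log2 changes of −0.34 at 2 hr (adjusted p = 0.0297), −0.36 at 4 hr (0.0169) and −0.47 ± 0.09 at 12 hr (SE, adjusted p = 0.0065), and −0.25 at 24 hr, which did not pass (adjusted p = 0.0755). The 2 hr call ended without any 1 of the 0 and 2 hr arrays (adjusted p up to 0.153), the 4 hr call without either 0 hr array or 4 hr replicate 1 (up to 0.0984), and the 12 hr call without replicate 1 of 0 hr or 12 hr (0.0529 and 0.0628).

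The other calls of complex I were small. Ndufc2, a subunit of the membrane arm, fell by 0.31 at 4 hr (adjusted p = 0.0372) and by 0.35 at 12 hr (0.0283), with 2992 and 2934 at 4 hr and 2738 and 3049 at 12 hr, against 3542 and 3820 at 0 hr. Its neighbor Ndufc1, the other subunit of that pair, fell at 12 hr, to 3966 and 4299, against 5199 and 5291 at 0 hr (adjusted p = 0.047). Ndufb10, also in the membrane arm, read 2257 and 2096 at 4 hr, against 2531 and 2883 at 0 hr (−0.31, adjusted p = 0.0414), and 3216 and 3324 at 24 hr (0.28, adjusted p = 0.0727). Ndufs1, the large iron-sulfur subunit of the NADH-binding module, was the only subunit of complex I that was called higher, at 24 hr, with 1663 and 1810, against 1348 and 1373 at 0 hr (0.35, adjusted p = 0.0319). The brightest probe set of complex I belonged to Ndufa4, whose product was later assigned to complex IV, and its log2 changes lay between −0.01 and 0.14. Ndufa7, of the arm that reaches into the matrix, was not called on its bright probe set, whereas a dim one (109 to 175) gave 0.52 at 2 hr and 0.52 at 4 hr (adjusted p = 0.00901 and 0.0061). With the Actb ratio as a covariate the calls of Ndufv2 at 2 hr and of Ndufc2 and Ndufb10 at 4 hr ended (adjusted p = 0.112, 0.0867 and 0.213). Their log2 changes were then −0.41, −0.351 and −0.254. Each of these calls of Ndufc2, Ndufc1, Ndufb10 and Ndufs1 ended when either 0 hr array was left out, with adjusted p up to 0.216, 0.201, 0.267 and 0.159, and also without arrays of other times, where the highest adjusted p was 0.196 (12 hr replicate 1), 0.249 (12 hr replicate 1), 0.153 (4 hr replicate 2) and 0.187 (24 hr replicate 2).

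Complex II, succinate dehydrogenase, which also works in the citric acid cycle, had 4 subunits with unlike courses. Sdha, the flavoprotein that oxidizes succinate, read 2171 and 2139 at 0 hr, 1713 and 1718 at 2 hr, 1693 and 1572 at 4 hr, 1889 and 2042 at 12 hr, and 2061 and 2045 at 24 hr. It fell by 0.33 at 2 hr (adjusted p = 0.0291) and by 0.40 at 4 hr (0.0091), and lay at −0.07 at 24 hr (0.642). Sdhd, one of the membrane anchors, ran the other way, with 3345 and 3375 at 0 hr, 3886 and 3536 at 2 hr, 4253 and 3974 at 4 hr, 3079 and 3060 at 12 hr, and 2646 and 2793 at 24 hr. It was called in both directions, higher at 4 hr (0.29, 95% interval 0.09 to 0.49, adjusted p = 0.0421) and lower at 24 hr (−0.31, −0.50 to −0.11, adjusted p = 0.0397). A second bright probe set of Sdhd gave 0.17 at 4 hr (adjusted p = 0.295) and −0.30 at 24 hr (0.0737). Sdhb, the iron-sulfur subunit, and Sdhc, the other membrane anchor, were called at none of the 4 times, with log2 changes from −0.23 to −0.06 and from 0.04 to 0.23. Without either 0 hr array the calls of Sdha ended (adjusted p = 0.155 and 0.127 at 2 hr, 0.0664 and 0.0552 at 4 hr), as did the 2 hr call without either 2 hr array. With the Actb ratio as a covariate they ended too (adjusted p = 0.267 and 0.0637), at log2 changes of −0.267 and −0.355. Sdhd then stood at −0.20 at 24 hr (0.309). The 4 hr call of Sdhd ended without any 1 array of 0, 4, 12 or 24 hr (adjusted p up to 0.177), and its 24 hr call without any 1 of 0, 12 or 24 hr (up to 0.172).

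The largest changes of all members were in the proteins that assemble complex II. Sdhaf3 helps to fit the iron-sulfur clusters of Sdhb, and Sdhaf4 acts on Sdha once it carries its flavin. Sdhaf3 read 496 and 544 at 0 hr, 235 and 240 at 2 hr, 307 and 219 at 4 hr, 522 and 487 at 12 hr, and 580 and 596 at 24 hr. Sdhaf4 read 1585 and 1606 at 0 hr, 835 and 733 at 2 hr, 740 and 590 at 4 hr, 1416 and 1553 at 12 hr, and 2670 and 2566 at 24 hr. Both were low on all 4 early arrays, with no overlap with the others. Sdhaf3 fell by 1.13 ± 0.15 (SE) on the log2 scale at 2 hr (adjusted p = 0.00151) and by 1.00 at 4 hr (0.00153), and Sdhaf4 by 1.03 ± 0.12 at 2 hr (0.00109) and by 1.27 at 4 hr (0.00022). At 12 hr neither was called (−0.04, adjusted p = 0.896, and −0.11, adjusted p = 0.646), and at 24 hr Sdhaf4 rose by 0.71 (0.00419) while Sdhaf3 stood at 0.18 (0.461). These calls held without any 1 of the 10 arrays, and the other alternatives ended only that of Sdhaf3 at 4 hr, which did not pass the methods' analysis of variance at an unadjusted p under 0.05. With the Actb ratio as a covariate it was −0.76 (adjusted p = 0.0121). Sdhaf2, which supports the attachment of flavin to Sdha, did not exceed 0.07 in either direction on its bright probe set, although a dim one (57.2 to 100.1) gave 0.70 at 2 hr and 0.55 at 4 hr (adjusted p = 0.0069 and 0.014), and Sdhaf1 was not called.

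The promoters of both genes are shown because the genes moved together. NRF1 and GABP are transcription factors known to bind the promoters of many respiratory genes. The sequences run 5′ to 3′ on the strand of the gene, from 250 bases before to 50 bases after the annotated start (RefSeq, rat build GRCr8), at chr4:36066713-36067012 on the plus strand for Sdhaf3 and chr9:33912764-33913063 on the minus strand for Sdhaf4. Capitals mark matches, on either strand, to GCGCANGCG for NRF1 or CCGGAAG for GABP.
Sdhaf3: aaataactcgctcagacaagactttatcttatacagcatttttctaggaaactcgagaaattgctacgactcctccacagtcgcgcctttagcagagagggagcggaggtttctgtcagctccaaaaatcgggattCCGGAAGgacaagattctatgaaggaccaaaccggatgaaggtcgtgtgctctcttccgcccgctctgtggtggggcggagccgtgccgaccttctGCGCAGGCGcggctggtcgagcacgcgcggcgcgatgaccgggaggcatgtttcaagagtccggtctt
Sdhaf4: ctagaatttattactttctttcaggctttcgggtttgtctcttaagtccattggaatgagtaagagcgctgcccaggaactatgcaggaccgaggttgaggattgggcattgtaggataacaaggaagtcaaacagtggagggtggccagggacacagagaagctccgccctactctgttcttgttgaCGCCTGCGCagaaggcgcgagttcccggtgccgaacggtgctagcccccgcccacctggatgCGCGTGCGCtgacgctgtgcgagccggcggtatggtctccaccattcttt
Sdhaf3 held 1 match to each motif and Sdhaf4 held 2 to the NRF1 motif. A match of letters is a description of the sequence and not a measured site.

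Promoters of 82 members were found by gene identifier in the RefSeq table. Of these, 21 (25.6%) held the NRF1 motif, 25 (30.5%) the GABP motif and 17 (20.7%) the YY1 motif AAGATGGC. They were held by 6.26, 9.22 and 3.44% of all 27457 promoters of that length, and by 11.2, 15.1 and 4.72% of the 11700 whose genes are on the array. Both strands were searched in every case, and a GABP match can overlap a YY1 match by the letters AAG. Matches were found in genes of unlike course: Sdhd and Uqcrc2 each held 2 GABP matches, and Sdha held 3 NRF1 matches. Uqcrc2 is shown as a subunit that fell early and Sdhd as the member called in both directions, at chr1:184598990-184599289 on the plus strand and chr8:59850592-59850891 on the minus strand, with capitals for the GABP motif on either strand.
Uqcrc2: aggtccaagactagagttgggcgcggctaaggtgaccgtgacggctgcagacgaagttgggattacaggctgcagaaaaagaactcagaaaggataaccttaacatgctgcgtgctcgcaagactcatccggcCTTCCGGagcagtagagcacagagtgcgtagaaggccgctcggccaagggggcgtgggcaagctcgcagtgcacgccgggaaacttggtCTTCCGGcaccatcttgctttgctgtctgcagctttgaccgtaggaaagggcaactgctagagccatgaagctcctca
Sdhd: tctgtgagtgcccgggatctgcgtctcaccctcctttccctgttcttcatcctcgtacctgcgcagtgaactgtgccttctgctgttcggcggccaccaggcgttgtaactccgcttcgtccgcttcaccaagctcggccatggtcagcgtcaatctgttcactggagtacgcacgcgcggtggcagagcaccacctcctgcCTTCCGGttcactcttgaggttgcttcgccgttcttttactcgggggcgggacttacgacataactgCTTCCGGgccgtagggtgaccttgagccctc

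Among the assembly factors of complex I, 3 were called. Ndufaf7, a methyltransferase needed for complex I assembly, read 583 and 542 at 0 hr, 367 and 383 at 2 hr, 479 and 408 at 4 hr, 780 and 764 at 12 hr, and 663 and 573 at 24 hr. It fell by 0.59 at 2 hr (adjusted p = 0.00842) and rose by 0.46 at 12 hr (0.0203), though its second, dimmer probe set gave −0.12 and 0.31 at those times and was not called (adjusted p = 0.673 and 0.227). The 2 hr arrays lay below and the 12 hr arrays above all 4 of the 0 and 4 hr arrays. Ndufaf3, which acts early in assembly with Ndufaf4, read 1357 and 1178 at 24 hr, against 880 and 960 at 0 hr (0.46, adjusted p = 0.0147). Ndufaf1, of the complex that builds the membrane arm, read 188 and 178 at 24 hr, against 144 and 135 at 0 hr (0.39, adjusted p = 0.0299). Over all 10 assembly factors the counts were 0 up and 3 down at 2 hr, 0 and 2 at 4 hr, 1 and 0 at 12 hr, and 3 and 0 at 24 hr, with medians of −0.170, −0.162, 0.003 and 0.157. That made 30, 20, 10 and 30% called, against 17.5, 23.8, 19.0 and 20.2% of all probe sets, so the shares at 4 and 12 hr lay under the latter. The 2 hr call of Ndufaf7 and the call of Ndufaf3 ended with the Actb ratio as a covariate (−0.41 and 0.36, adjusted p = 0.163 and 0.141). With the mean of both probe sets Ndufaf7 stood at −0.35 at 2 hr (0.0994). The 2 hr call of Ndufaf7 ended without 0 hr replicate 1 (adjusted p = 0.0735) and its 12 hr call without any 1 of the 0 and 12 hr arrays (up to 0.139). The call of Ndufaf3 ended without replicate 1 of 0 hr or of 24 hr (0.116 and 0.0944), and that of Ndufaf1 without any 1 of the 0, 12 and 24 hr arrays (up to 0.173).

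**Figure D2:**
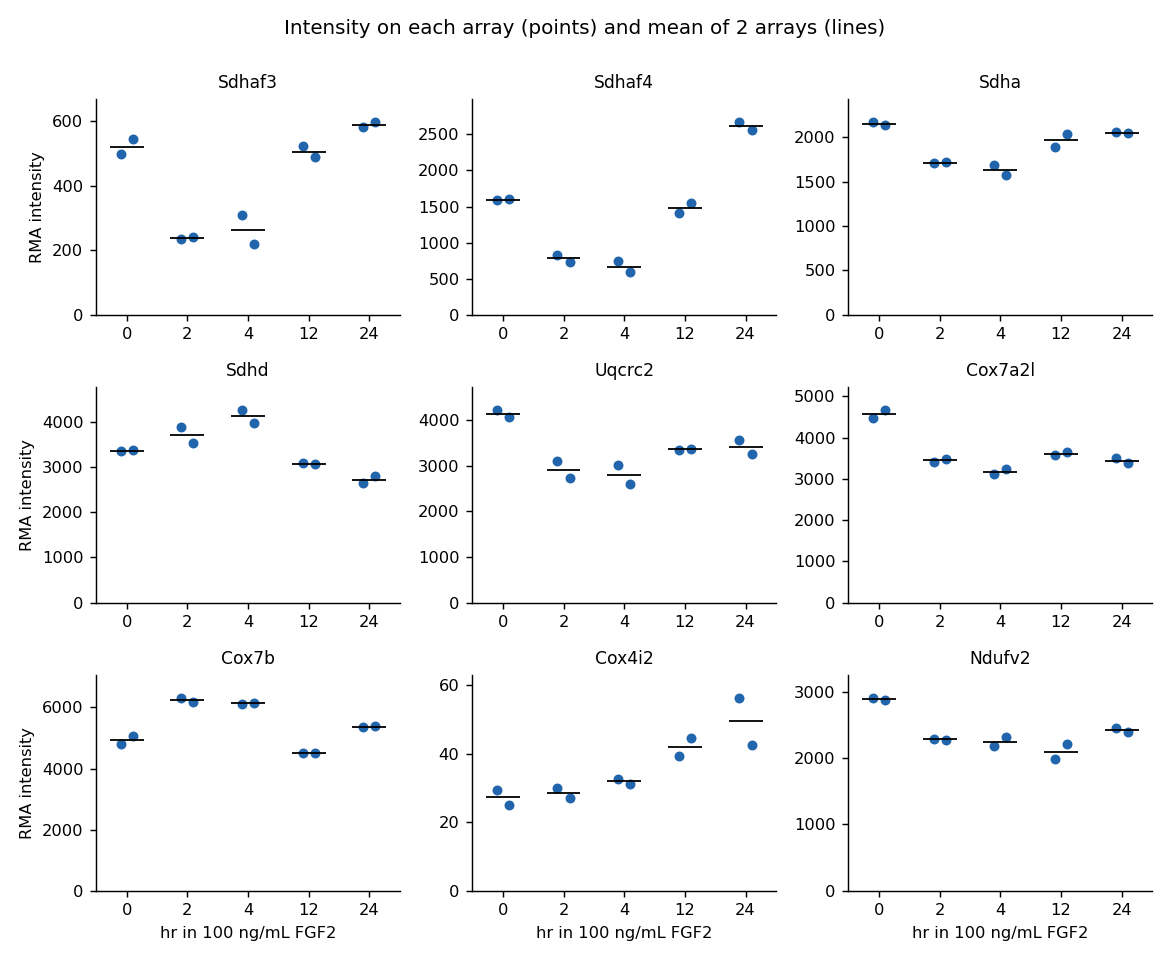
RMA intensity (vertical axis, linear, from 0) of 9 members on each of the 10 arrays by hours in 100 ng/mL FGF2, with a line at the mean of the 2 arrays. Sdhaf3 and Sdhaf4 read lowest at 2 and 4 hr, Sdhd and Cox7b read highest there, and Cox7a2l lies below its 0 hr arrays at every later time.

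Complex III, which passes electrons from ubiquinol to cytochrome c, had 7 members. Uqcrc2, one of its core proteins, read 4214 and 4052 at 0 hr, 3091 and 2730 at 2 hr, 3004 and 2590 at 4 hr, 3351 and 3371 at 12 hr, and 3554 and 3246 at 24 hr. It fell by 0.51 ± 0.11 (SE) at 2 hr (adjusted p = 0.0131) and by 0.57 at 4 hr (0.00543), and stood at −0.30 (0.0905) and −0.28 (0.101) later. A second probe set of Uqcrc2 ran alongside, with −0.63 at 2 hr (adjusted p = 0.0513) and −0.70 at 4 hr (0.0281). Uqcrc1, the other core protein, went the opposite way, with 3305 and 2967 at 12 hr, against 2504 and 2492 at 0 hr (0.33, adjusted p = 0.042). Uqcr10, a small subunit and the brightest of the complex, fell by 0.25 at 4 hr (adjusted p = 0.0426), and its values at 12 and 24 hr, −0.25 and −0.25, had adjusted p of 0.0565 and 0.051. With the Actb ratio as a covariate Uqcrc2 stood at −0.26 at 2 hr, no longer called (adjusted p = 0.272), and at −0.38 at 4 hr (0.0461). That covariate also ended the call of Uqcr10 (−0.24, adjusted p = 0.157). The 4 hr call of Uqcrc2 held without any 1 array, its 2 hr call ended without either 0 hr array or 2 hr replicate 2 (adjusted p up to 0.095), and those of Uqcrc1 and Uqcr10 ended without either array of 0 hr (up to 0.179 and 0.201), of the time itself (0.256 and 0.119) or of 24 hr (0.062 and 0.0631), and that of Uqcr10 also without either of 12 hr (0.0734).

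Complex IV, cytochrome c oxidase, is the one whose subunits come in isoforms for different organs, and its 16 members spread the most among the complexes, with log2 changes between −0.74 and 0.85. At 2 hr 1 was called higher and 2 lower, at 4 hr 1 and 2, at 12 hr 1 and 1, and at 24 hr 1 and 1. That made 18.8, 18.8, 12.5 and 12.5%, against 17.5, 23.8, 19.0 and 20.2% of all probe sets. Cox7a2l, a relative of the Cox7a subunits that joins complexes III and IV into supercomplexes, was the only member called at all 4 times. It read 4479 and 4666 at 0 hr, 3417 and 3476 at 2 hr, 3112 and 3229 at 4 hr, 3571 and 3640 at 12 hr, and 3497 and 3383 at 24 hr. Its log2 changes were −0.41 ± 0.08 (SE, adjusted p = 0.00952), −0.53 (0.00183), −0.34 (0.0169) and −0.41 (0.00721), and no later array overlapped with 0 hr. The 4 hr call held without any 1 array, whereas the 2 hr call ended with the Actb ratio as a covariate (adjusted p = 0.0629) or without either 0 hr array (up to 0.0787), the 12 hr call without any 1 of the 0 and 12 hr arrays (up to 0.124) and the 24 hr call without replicate 2 of 0 or 24 hr (0.0655 and 0.053). With that covariate the log2 change of Cox7a2l at 2 hr was −0.46.

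Other isoforms of complex IV were dim or had passing changes. Cox7a1, the isoform of heart and skeletal muscle, read 84.7 and 103 at 0 hr, 52.2 and 60.2 at 2 hr, 64.9 and 71.3 at 4 hr, 89.8 and 92.2 at 12 hr, and 89.3 and 77.8 at 24 hr. It fell by 0.74 at 2 hr (adjusted p = 0.00574) and by 0.46 at 4 hr (0.0308). Cox7b, a small subunit of the enzyme, rose to 6304 and 6162 at 2 hr and 6112 and 6152 at 4 hr, against 4788 and 5048 at 0 hr (0.34, adjusted p = 0.0185, and 0.32, 0.0184). At 12 hr it read 4495 and 4493 and at 24 hr 5355 and 5380, neither called. Cox4i2, the isoform of Cox4 known from lung and induced by low oxygen, was dim throughout, with 29.6 and 25 at 0 hr, 29.9 and 27.1 at 2 hr, 32.7 and 31.2 at 4 hr, 39.4 and 44.5 at 12 hr, and 56.2 and 42.6 at 24 hr. It rose by 0.62 at 12 hr (adjusted p = 0.0179) and by 0.85 ± 0.15 (SE) at 24 hr (0.00426), the call among these that held without any 1 array. The methods' analysis of variance called neither change of Cox4i2 and neither of Cox7a1 at an unadjusted p under 0.05, and Cox4i2 lay among the dimmest 1 in 3 probe sets. The calls of Cox7a1 ended without 0 hr replicate 2 (adjusted p = 0.0516 at 2 hr and 0.213 at 4 hr), and at 4 hr also without either 12 hr array or 4 hr replicate 1 (up to 0.122), those of Cox7b with the Actb ratio as a covariate (0.142 and 0.0751), without either 0 hr array (up to 0.139), 2 hr replicate 1 (0.0597) or 4 hr replicate 2 (0.0552), and the 12 hr call of Cox4i2 without 0 hr replicate 2 or either 12 hr array (up to 0.138). The log2 changes of Cox7b with that covariate were 0.34 at 2 hr and 0.32 at 4 hr, as without it.

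The common isoform Cox4i1 was bright and not called, with log2 changes from −0.22 to −0.03 and 95% intervals that reached no farther than −0.44 and 0.18. Of the pairs known to differ by organ, Cox6a1 and Cox6a2 lay between −0.12 and 0.03 in all 8 comparisons with 0 hr, Cox8a and Cox8b between −0.22 and 0.07, and Cox6b1 between −0.16 and −0.04. Cox6b2, the testis isoform, read 226 and 287 at 12 hr and 341 and 256 at 24 hr, against 158 and 222 at 0 hr, and its log2 changes of 0.44 and 0.66 did not pass (adjusted p = 0.228 and 0.0727). Cox5b lay between −0.21 and −0.02. Cox5a was held by a dim probe set, with 0.38 at 12 hr (adjusted p = 0.178), and a far brighter probe set that Cox5a shares with another symbol gave 0.14 (0.523). Ndufa4l2, which replaces Ndufa4 under low oxygen in other tissues, read 53.2 and 50.8 at 12 hr and 53.7 and 57.0 at 24 hr, against 43.8 and 46.0 at 0 hr, and did not pass at either time (adjusted p = 0.274 and 0.11). The pseudogene Cox6c-ps1, with intensities of 34.7 to 68.6, was not called.

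Complex V was the most even. Of its 15 members Atp5f1c, the gamma subunit that forms the turning shaft of the catalytic head, was alone in being called. It read 6311 and 6387 at 0 hr, 5204 and 5083 at 2 hr, 4992 and 4926 at 4 hr, 6186 and 6280 at 12 hr, and 7027 and 7253 at 24 hr. It fell by 0.30 at 2 hr (adjusted p = 0.0281) and by 0.36 at 4 hr (0.0104), and lay at 0.17 at 24 hr (0.173). For all 15 members and all 4 times the 95% interval stayed within 1.5-fold of 0 hr. Atp5mc3, which makes part of the proton-driven ring and was the brightest member of the complex, lay between −0.07 and 0.06, and the inhibitor Atp5if1, which blocks ATP hydrolysis by the complex, between −0.07 and 0.21. The calls of Atp5f1c ended with the Actb ratio as a covariate (adjusted p = 0.205 at 2 hr and 0.056 at 4 hr) and without either 0 hr array (adjusted p up to 0.147 at 2 hr and 0.0723 at 4 hr), and at 2 hr also without any 1 of the 2 and 12 hr arrays (up to 0.0824). With that covariate its log2 changes were −0.29 at 2 hr and −0.34 at 4 hr. Of the 7 probe sets that carry the symbol of such a gene together with another symbol (for Atp5mc1, Atp5mc2, Cox5a, Cox7a2, Ndufa10, Ndufs5 and Uqcrb), none was called against 0 hr.

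A direct comparison of the late arrays (12 and 24 hr, 4 arrays) with the early arrays (2 and 4 hr, 4 arrays) gave more calls. Higher late were 22 members and lower late 6, 31.1% of the 90, against 39.2% of all probe sets (19.9% higher and 19.3% lower). The median difference of the members was 0.097, against 0.027 over all probe sets. Called were 13 members of complex I (10 higher, 3 lower), 2 of complex II (1 and 1), 1 of complex III (higher), 5 of complex IV (4 and 1), 2 of complex V (1 and 1) and 5 assembly factors (all higher). Of the 28, 14 had been called against 0 hr at some time and 14 had not. Without 12 hr replicate 1 or replicate 2, 16 and 17 members were called, and when a change of at least 25% was asked for besides the test, 14. With the methods' analysis of variance at an unadjusted p under 0.05 the share was 44.4%, against 40.6% of all probe sets.

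Sdhaf4 and Sdhaf3 led, at 1.45 ± 0.09 (SE, adjusted p = 9.61e-06) and 1.13 ± 0.10 (6.39e-05). Ndufs3, a subunit of the arm of complex I that hands electrons to ubiquinone, read 2568 and 2342 at 12 hr and 2252 and 2345 at 24 hr, against 1683 and 1681 at 2 hr and 1766 and 1649 at 4 hr (0.49, adjusted p = 0.000377). All 4 late arrays lay above all 4 early arrays, and the 0 hr arrays, 2006 and 2106, lay between them. Its neighbor Ndufs8, an iron-sulfur subunit of the same arm, was 0.46 higher late (adjusted p = 0.00589), and Ndufb10 was 0.38 higher (0.00211). Lower late were Sdhd (−0.43, adjusted p = 0.000674), Cox7b (−0.33, 0.00155), Ndufv1, the subunit that binds NADH (−0.23, 0.0215), Ndufa1 (−0.23, 0.0225), Atp5mg (−0.21, 0.03) and Ndufa12 (−0.18, 0.0346). Ndufv1, whose product pairs with that of Ndufv2, read 1347 and 1375 at 12 hr and 1229 and 1330 at 24 hr, against 1613 and 1458 at 2 hr and 1609 and 1521 at 4 hr. Of the 28 calls 15 held without any 1 array, among them those of Sdhaf4, Sdhaf3, Ndufs3, Ndufs8, Ndufb10, Sdhd and Cox7b, and 13 ended without at least 1. Those of Ndufv1, Ndufa1, Atp5mg and Ndufa12 ended without either 12 hr array, without 24 hr replicate 1 and without other arrays, with adjusted p up to 0.0725, 0.0655, 0.0972 and 0.103.

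**Figure D3:**
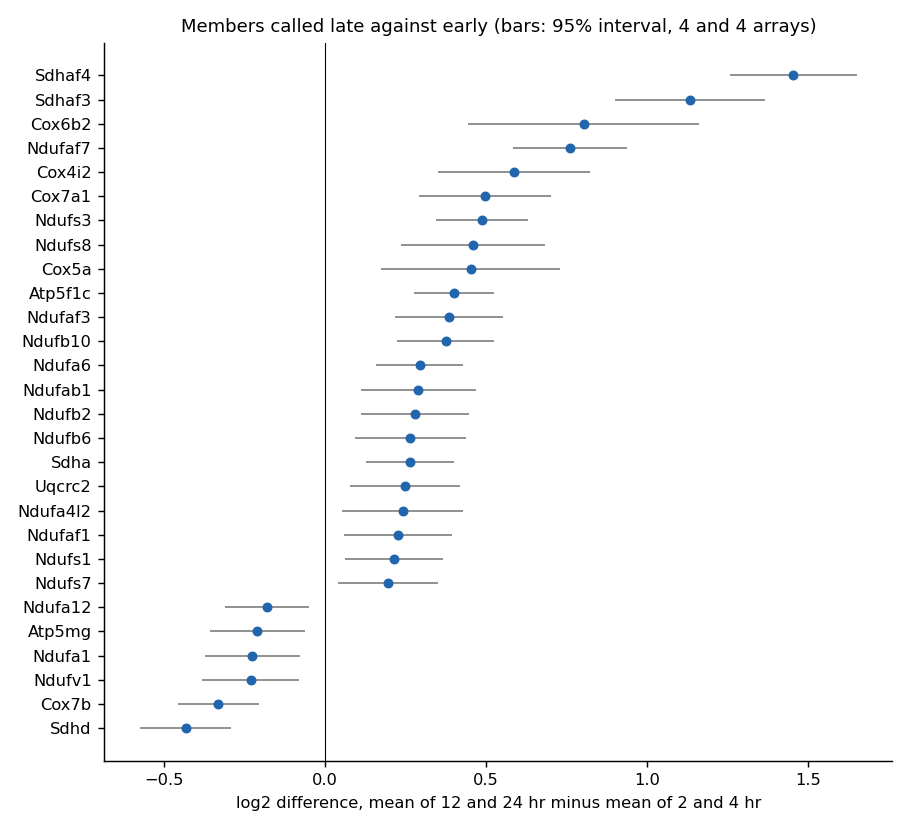
Log2 difference (horizontal axis, mean of 12 and 24 hr minus mean of 2 and 4 hr) of the 28 members called in that comparison, with 95% intervals from 4 and 4 arrays. The 22 higher members run up to Sdhaf4 at 1.45 and the 6 lower ones down to Sdhd at −0.43.

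Fewer members were called within the early or the late pair of times. Between 4 and 2 hr no member was called by limma (0 of 90, against 3.73% of all probe sets, 2.24% higher and 1.5% lower), 2 had an unadjusted p under 0.05 and the methods' analysis of variance gave 3 at that threshold. The member median was −0.017. Between 24 and 12 hr 2 members were higher and 0 lower (2.22%, against 4.34% of all probe sets, 2.22% higher and 2.12% lower), and the median of the members was 0.112, against 0.004 over all probe sets, with 19 of 90 members below 0. In this fit it was farther from 0 than the member medians of the other 6 comparisons. The share of members exceeded that of all probe sets with a trended and robust prior (6.67%, against 5.21%), by unadjusted p (25.6%, against 17.8%) and with the methods' analysis of variance (21.1%, against 14.7%). The calls were Sdhaf4 (0.82, adjusted p = 0.00951) and Ndufaf8, a partner of the complex I assembly factor Ndufaf5, which read 517 and 538 at 24 hr, against 398 and 380 at 12 hr (0.44, adjusted p = 0.0308). Without replicate 1 or 2 of 12 hr or of 24 hr no member passed, and without either 0 hr array 1 did.

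Other parts of the mitochondrion were set beside these genes, from lists of known members counted whole. These lists were not recomputed under the alternative settings. The cytosolic ribosomal proteins (42 genes), a bright set of common cell machinery, had no call at 2, 4, or 12 hr and 2 lower at 24 hr, with medians of −0.076, −0.100, −0.006 and 0.062. Proteasome subunits (36 genes) had medians of −0.168, −0.052, −0.015 and 0.046 and from 2 to 4 calls at each time. The oxidative phosphorylation genes, with −0.094, −0.106, −0.078 and 0.035, lay between these lists at 2 hr and below both at 4, 12, and 24 hr, and no difference between lists was tested. The shares of all probe sets called were 17.5, 23.8, 19.0 and 20.2% in order of time.

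Mitochondrial ribosomal proteins translate the subunits encoded in mitochondrial DNA. Of 73 genes 1 was called higher and 10 lower at 2 hr, 3 and 8 at 4 hr, 15 and 4 at 12 hr, and 29 and 3 at 24 hr, which made 15.1, 15.1, 26.0 and 43.8%, with medians of −0.118, −0.098, 0.181 and 0.262. The shares at 2 and 4 hr lay under those of all probe sets. Late against early 46 were higher and 1 was lower (64.4%, against 39.2% of all probe sets), a median of 0.252. Of 20 genes of mitochondrial protein import 0 were higher and 1 lower at 2 hr, 4 and 1 at 4 hr, 6 and 0 at 12 hr, and 6 and 0 at 24 hr (5, 25, 30 and 30% called), with medians of 0.003, 0.039, 0.236 and 0.291, and late against early 15 were higher and 1 lower (80%). Timm8a1, a chaperone of the space between the membranes, read 1930 and 2153 at 12 hr and 2160 and 1991 at 24 hr, against 1153 and 1090 at 0 hr (0.86 and 0.89, adjusted p = 0.00205 and 0.00177). Tomm40, the pore of the outer membrane, rose by 0.72 at 12 hr (0.00399), Tomm70, a receptor beside it, by 0.63 at 24 hr (0.00158), and Gfer, an oxidase that folds imported proteins, fell by 0.66 at 2 hr (0.00449).

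**Figure D4:**
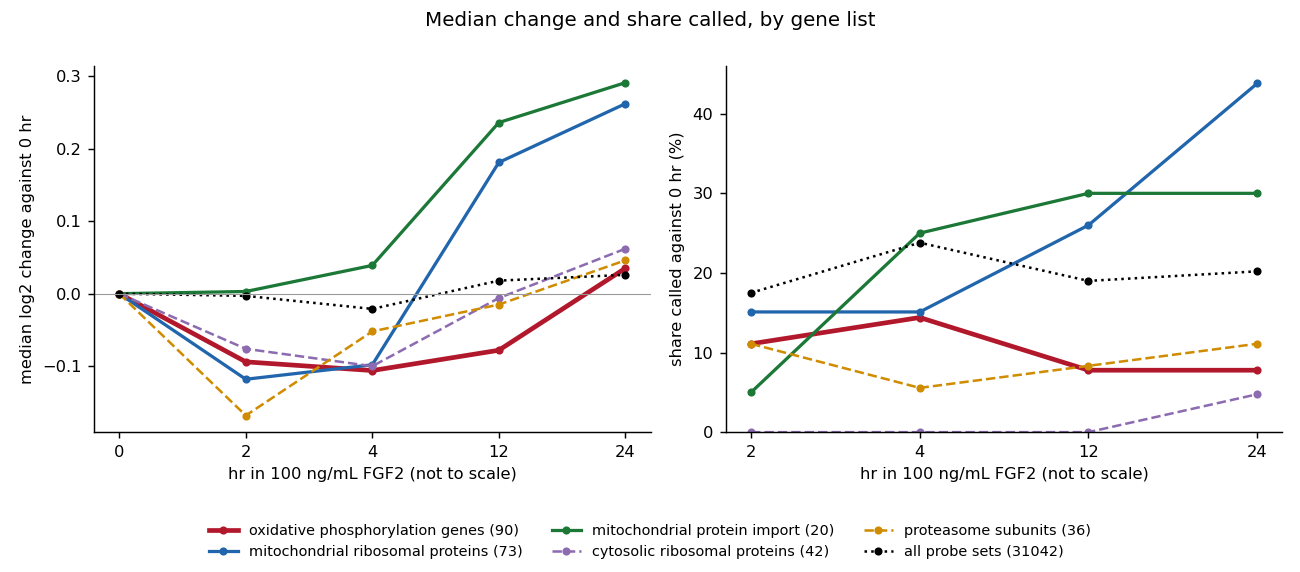
Left, median log2 change against 0 hr; right, share of genes called against 0 hr (percent), both by hours in 100 ng/mL FGF2 for 5 gene lists and all probe sets, with the number of genes in parentheses. The oxidative phosphorylation genes keep a median between −0.106 and 0.035 and a share below all probe sets in the fit plotted (at 4 hr 14.4%, against 23.8%, an order that turned with a trended and robust prior, 30.0%, against 24.4%), and the mitochondrial ribosomal proteins reach 0.262 and 43.8% at 24 hr.

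Assembly factors that the rule left out (31 genes) had 1 higher and 5 lower at 2 hr, 1 and 4 at 4 hr, 3 and 7 at 12 hr, and 3 and 5 at 24 hr (19.4, 16.1, 32.3 and 25.8%), with medians of −0.087, −0.101, −0.066 and 0.021. Uqcc3, which acts in complex III assembly, fell by 0.70 at 12 hr and by 1.11 at 24 hr (adjusted p = 0.0318 and 0.00392), and Cox11, a copper chaperone of complex IV, fell by 0.86 and by 0.69 (0.00692 and 0.0179). Pet100, a further factor of complex IV, rose by 0.55 at 24 hr (0.0117). Coa7 rose at 2, 4, and 12 hr (0.50, 0.61 and 0.40). Of 9 respiratory electron carriers 0 were higher and 3 lower at 2 hr, 1 and 3 at 4 hr, 1 and 4 at 12 hr, and 1 and 2 at 24 hr (33.3, 44.4, 55.6 and 33.3%), with medians of −0.135, −0.195, −0.17 and −0.059. Coq9, a lipid-binding protein of ubiquinone synthesis, fell by 0.59 at 2 hr and by 0.72 at 4 hr (adjusted p = 0.00192 and 0.000454) and Etfdh, which feeds electrons from fat oxidation into ubiquinone, fell at all 4 times (−0.45, −0.67, −0.62 and −0.46, adjusted p from 0.00113 to 0.0107). Coq3, a methyltransferase of ubiquinone synthesis, rose by 0.81 at 24 hr (0.000771), and Etfa, part of the flavoprotein that hands electrons to Etfdh, fell by 0.40 at 2 hr (0.0157).

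Of the 22 genes of pyruvate dehydrogenase and the citric acid cycle 2 were higher and 3 lower at 2 hr, 3 and 4 at 4 hr, 5 and 4 at 12 hr, and 2 and 3 at 24 hr (22.7, 31.8, 40.9 and 22.7%), with medians of −0.145, −0.118, −0.071 and −0.077. Pdk4, the kinase that switches pyruvate dehydrogenase off, read 1834 and 1573 at 0 hr, 883 and 1383 at 2 hr, 264 and 363 at 4 hr, 337 and 223 at 12 hr, and 178 and 106 at 24 hr, with log2 changes of −2.46, −2.63 and −3.63 at 4, 12, and 24 hr (adjusted p = 0.000788, 0.000705 and 0.000159). Pdha1, a catalytic subunit of that enzyme, rose by 1.251, 1.41 and 1.13 at the same times. Pdp1, the phosphatase that switches it on, rose by 1.246 at 2 hr and by 1.33 at 4 hr (9.45e-05 and 3.39e-05). Idh2, of the citric acid cycle, fell at all 4 times, most at 4 hr (−1.01, 9.6e-05). Of 15 carriers and channels 0 were higher and 2 lower at 2 hr, 1 and 5 at 4 hr, 2 and 3 at 12 hr, and 3 and 3 at 24 hr (13.3, 40.0, 33.3 and 40.0%), with medians of −0.175, −0.204, −0.093 and −0.005. Mpc1, a subunit of the pyruvate carrier, read 249 and 277 at 12 hr and 288 and 278 at 24 hr, against 840 and 892 at 0 hr (−1.72 and −1.61, adjusted p = 4.34e-05 and 4.84e-05). Also called were Ucp2, an inner membrane carrier, which rose by 1.2 at 12 hr and by 1.67 at 24 hr (0.000756 and 0.000159), Slc25a12, the aspartate-glutamate carrier, which fell by 1.5 at 12 hr (9.66e-05), and Slc25a13, its relative, which rose by 0.63 at 4 hr (0.0048).

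Among regulators of mitochondrial biogenesis the share called was 36.8, 57.9, 36.8 and 31.6% in order of time, beside 17.5, 23.8, 19.0 and 20.2% of all probe sets. Of 19 genes 4 were higher and 3 lower at 2 hr, 7 and 4 at 4 hr, 6 and 1 at 12 hr, and 2 and 4 at 24 hr, with medians of −0.024, 0.178, 0.111 and 0.074. Nrf1 read 194 and 192 at 0 hr, 315 and 328 at 2 hr, 381 and 404 at 4 hr, 190 and 204 at 12 hr, and 160 and 168 at 24 hr, and rose by 0.73 at 2 hr and by 1.02 at 4 hr (adjusted p = 0.000952 and 0.000104). Gabpb1, a subunit of GABP, rose by 0.50 and 0.70 at those times (0.0128 and 0.0017). Nrf1 and Gabpb1 were thus high on the 4 arrays on which Sdhaf3 and Sdhaf4 were low and Sdhd and Cox7b were high, and their part in those changes was not tested. Myc rose by 2.80, 2.19 and 1.73 at 2, 4, and 12 hr and lay at 0.08 at 24 hr. Esrrg, a nuclear receptor that drives respiratory genes in other tissues, rose by 1.05 at 4 hr, 1.73 at 12 hr and 1.67 at 24 hr (adjusted p = 0.0105, 0.00121 and 0.00138). Ppargc1a, a coactivator of these factors, fell by 0.44 at 2 hr, by 0.69 at 4 hr and by 0.93 at 24 hr (0.0485, 0.00562 and 0.00158). Of 5 mitophagy genes 0 were higher and 1 lower at 2 hr, 0 and 2 at 4 hr, 0 and 1 at 12 hr, and 0 and 1 at 24 hr, with medians of −0.096, −0.471, 0.207 and 0.162. The receptor Fundc1 fell by 0.55 at 2 hr and Pink1, a kinase of the same process, by 0.52 at 24 hr (0.0272 and 0.0274).

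**Figure D5:**
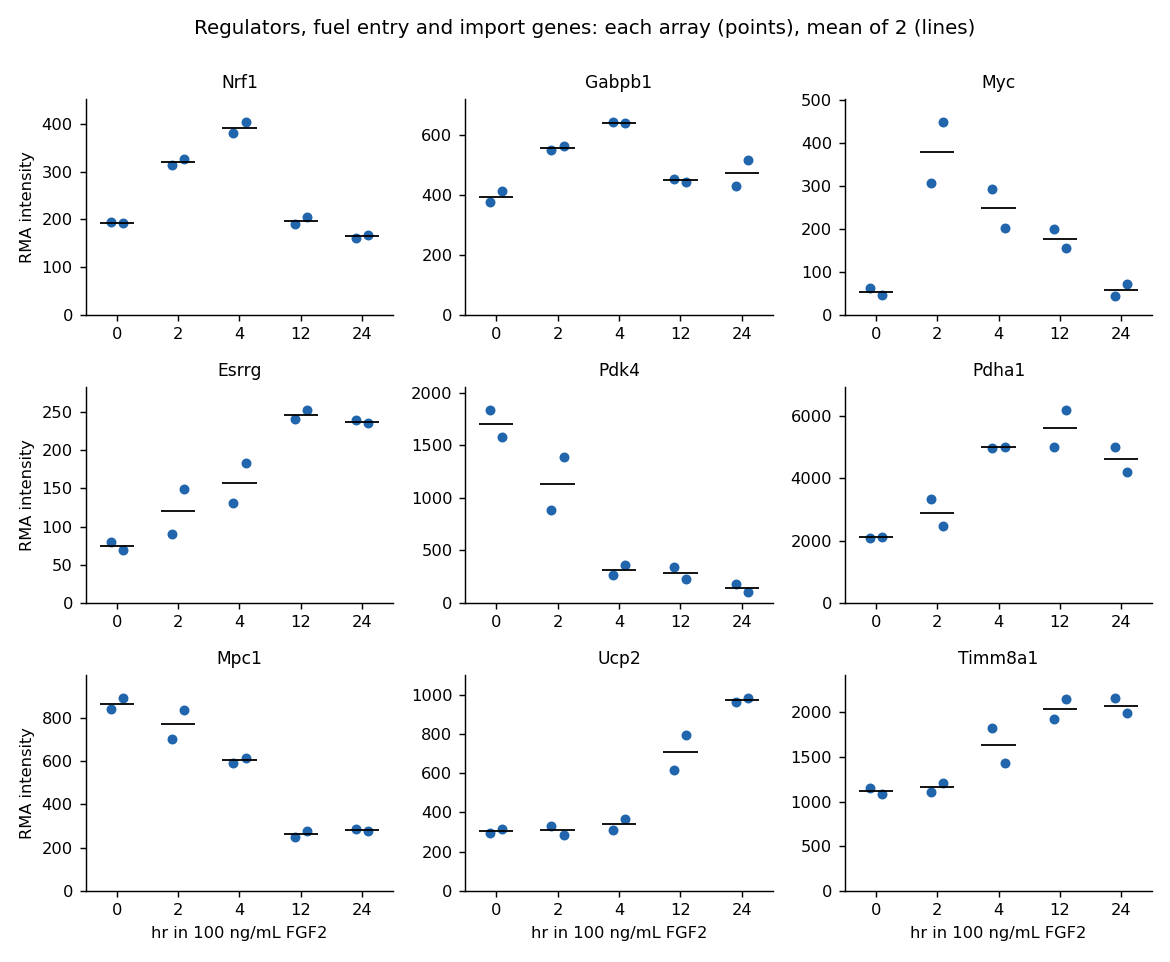
RMA intensity (vertical axis, linear, from 0) of 9 genes outside the members on each of the 10 arrays by hours in 100 ng/mL FGF2, with a line at the mean of the 2 arrays. Nrf1, Gabpb1 and Myc read higher at 2 and 4 hr than at 0 hr, Pdk4 and Mpc1 read lowest at 12 and 24 hr, and Esrrg, Ucp2 and Timm8a1 read highest there.

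The median course of the members over the 5 time points was matched most closely by 5 genes outside the rule, Bpifa5 (Pearson r = 0.9987), Gabarapl1 (0.9987), Adk (0.9984), Pou1f1 (0.9962) and Drc1 (0.9955). These are correlations of 5 means from the same 10 arrays, picked as the highest of all genes, and are given as a description.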

How the data were processed

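Total RNA of rat lens explants was amplified, labeled with biotin and hybridized to 1-color Affymetrix arrays, 2 per time point at 0, 2, 4, 12, and 24 hr. The intensity values deposited by the authors had been normalized by robust multichip average (RMA, version not given in the sources used here), which corrects background, equalizes the arrays and summarizes the probes of each probe set, and were on a linear scale. The array named in the study's methods differs from the one in its array names, and gene symbols came from the platform annotation of the values themselves. Of the probe sets 20826 carried 1 symbol, 436 several and 9780 none, and all 90 member symbols were current in RefSeq.

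Log2 values were used as they stood, without renormalizing, after dropping 57 array controls. The 31042 probe sets were fitted with limma 3.58.1 (R 4.3.3) over all 10 arrays, with a mean for each time point in lmFit and 5 residual degrees of freedom. The prior of eBayes had a SD of 0.116 and 3.69 degrees of freedom. Calls were made where p, adjusted by Benjamini-Hochberg over every probe set, was under 0.05. An adjusted p in the text is from this fit unless an alternative setting or a left-out array is named with it. Intervals are 95% from the moderated fit. The script was tested on simulated data. With 2 arrays per time point the number of arrays limits the precision. Equal replicate numbers were checked for pairing by correlating deviations from the group means. These lay between −0.147 and 0.327 over all probe sets, highest between 2 and 4 hr. With 2 arrays per time point they cannot exclude pairing, so samples were fitted unpaired and a replicate block was an alternative.

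Members and lists were chosen with earlier results of these data known. Named with values were, per complex and for the assembly factors, up to 4 highest and 4 lowest called changes, the brightest and dimmest member, the organ isoforms, members called in both directions, up to 4 called genes of each other list and the 5 genes of most similar course. Ribosomal and proteasome lists, taken by symbol, were only counted, and Ndufs3, Ndufs8, Ndufv1, Atp5if1, Gabpb1, the second probe sets and the members called only late against early were added after their values were seen. Promoters were from RefSeq (GRCr8). Results for the members, and counts over all probe sets, were recomputed with the methods' analysis of variance, unadjusted p, a fit of the groups compared alone, a trended and robust prior, median centring, array weights, quantile normalization, no probe sets of the dimmest 1 in 3, a change of at least 25%, the Actb ratio as a covariate, a replicate block, the mean of all probe sets of a gene, and each array left out. Values of the other gene lists and the markers are from the main limma fit alone. How far those depend on the settings or on single arrays was not tested. The methods' analysis of variance was here a linear model without eBayes on only the arrays of each comparison. The study names analysis of variance together with template matching, which was not run, so the study's own calls can differ. Plots came from matplotlib 3.10.9 under Python 3.11.15.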

Additional observations from a re-analysis of the deposited data

Results flagged for a closer look

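The comparisons between time points at the same FGF2 dose gave 30 results in which 2 times differed by the limma test of the difference itself, each with 2 arrays a time point. Between 24 and 12 hr these were Sdhaf4 (log2 difference 0.82) and Ndufaf8 (0.44). Late against early, the higher members were Sdhaf4 (1.454), Sdhaf3 (1.133), Cox6b2 (0.803), Ndufaf7 (0.761), Cox4i2 (0.587), Cox7a1 (0.496), Ndufs3 (0.487), Ndufs8 (0.459), Cox5a (0.451), Atp5f1c (0.401), Ndufaf3 (0.385), Ndufb10 (0.375), Ndufa6 (0.294), Ndufab1 (0.289), Ndufb2 (0.278), Ndufb6 (0.264), Sdha (0.263), Uqcrc2 (0.247), Ndufa4l2 (0.24), Ndufaf1 (0.226), Ndufs1 (0.213) and Ndufs7 (0.195). The lower members were Sdhd (−0.434), Cox7b (−0.332), Ndufv1 (−0.232), Ndufa1 (−0.227), Atp5mg (−0.212) and Ndufa12 (−0.181). The calls of Ndufs7, Ndufaf1, Ndufa4l2 and Ndufs1 were among those that ended when single arrays were left out. The second, dimmer probe set of Ndufaf7 gave 0.24 and was not called (limma adjusted p = 0.116). The far brighter probe set that Cox5a shares with another symbol gave 0.29 (limma adjusted p = 0.0243). The early arrays had the higher 5S rRNA signal and were listed in another run than the late ones, and the part of either in these differences was not tested.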

How the results depend on the processing

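Having 2 arrays per time point limits what these counts can bear, and all comparisons against 0 hr share the same 2 reference arrays. The number of members called, 10, 13, 7 and 7 against 0 hr at 2, 4, 12 and 24 hr, 0 for 4 against 2 hr, 2 for 24 against 12 hr and 28 for late against early, changed as follows. With unadjusted p it was 22, 31, 20, 21, 2 and 23 in the first 6 comparisons, with the methods' analysis of variance 17, 25, 19, 17, 3 and 19, and with a trended and robust prior 16, 27, 16 and 14 against 0 hr and 6 for 24 against 12 hr. With only the groups compared it was 6, 6 and 11 at 2, 4 and 12 hr, with array weights 21 at 12 hr and 16 at 24 hr, and with a change of at least 25% asked for besides, 8 at 4 hr and 14 late against early. With the Actb ratio as a covariate it was 3 at 2 hr, 7 at 4 hr and 1 for 24 against 12 hr, and the member median was −0.053 at 2 hr, 0.089 at 24 hr and 0.148 for 24 against 12 hr. Leaving out 1 array gave counts of 3 to 11 at 2 hr, 4 to 13 at 4 hr, 0 to 8 at 12 hr, 3 to 9 at 24 hr, 0 to 2 for 24 against 12 hr and 16 to 27 late against early, and medians of −0.141 to −0.046 at 2 hr, −0.174 to −0.064 at 4 hr, −0.116 to −0.036 at 12 hr and −0.041 to 0.017 for 4 against 2 hr. Whether the replicate numbers pair the samples could not be settled with 2 arrays per time point. With the replicate block 10, 11, 6, 6, 0, 1 and 27 members were called, so the count for 24 against 12 hr was 1 with the block. Shares over all probe sets moved with the setting too, at 2 hr from 17.5% to 30.6% with unadjusted p and to 7.92% with the Actb ratio. In all 22 alternatives the share of members called lay below that of all probe sets at 2, 12 and 24 hr. The same held for 4 against 2 hr. It lay below in 20 of 22 at 4 hr, 19 for 24 against 12 hr and 21 late against early. Of 55 calls of named members, 17 held in every alternative that gave a value, 38 were lost in at least 1, 18 of them with the Actb ratio, and 0 were reversed.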
